A study of Rattus norvegicus with 28 samples.

Results

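The gene expression arrays were searched for H19 and the insulin-like growth factor (IGF) system, a set of 10 genes: the noncoding RNA H19, the ligands Igf1 and Igf2, the receptors Igf1r and Igf2r, and the binding proteins Igfbp2, Igfbp3, Igfbp4, Igfbp5 and Igfbp6. They were chosen by name, as the non-control probes whose accession carries one of these rat symbols, and are 10 of the 15637 genes that could be named on the array. They had 12 probes, 2 each for Igf1 and Igfbp2 and 1 each for the others. Of these, 11 probes of 9 genes were above background on all 14 arrays. The Igfbp5 probe was above background on none of the 14, so that no level of this gene is given.

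The IGF ligands are secreted growth factors that act mainly through the type 1 IGF receptor, a tyrosine kinase encoded by Igf1r. The receptor encoded by Igf2r carries IGF2 to lysosomes and clears it. The binding proteins hold the ligands outside cells, lengthen their life and limit or direct their access to receptors. H19 and Igf2 are neighbouring imprinted genes: H19 is transcribed from the maternal copy and Igf2 from the paternal copy in most tissues, although Igf2 is expressed from both copies in choroid plexus and meninges. H19 RNA is abundant before birth and scarce in most adult tissues. In the adult brain, choroid plexus and meninges are known sources of IGF2 and of IGF binding protein 2.

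RNA came from the hippocampus of 14 adult male Sprague-Dawley rats, taken 24 h after injury or sham injury. Sham rats (n = 2) were prepared without injury, and TBI rats (n = 3) received a parasagittal fluid-percussion traumatic brain injury that the labels call severe. The groups TBI+Imipramine, TBI+Prozac and TBI+Zoloft (n = 3 each) had the same injury and 1 intraperitoneal injection 1 h later of imipramine, a tricyclic antidepressant, or of the serotonin reuptake inhibitors fluoxetine (Prozac) or sertraline (Zoloft), at the same dose by the study's methods. Those methods mention vehicle, but the labels do not say which rats received it, and no sample analysed here is labelled as sham injury with a drug. RNA of each rat was put on 1 array of each kind, so that differences between groups are differences between rats, and in whole tissue more cells of a type cannot be told apart from more RNA per cell.

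Between 14676 and 18196 of 30367 probes passed background on a gene expression array. Both Sham arrays lay on a slide of their own (slide 3, scanned on a different day), the 3 TBI arrays and TBI+Prozac replicate 1 on slide 1, and the other 8 drug arrays on slide 2. Slide and injury therefore cannot be told apart in any comparison with Sham, and the drug groups shared a slide with TBI through 1 array alone. Hippocampal neuron markers were measured for 7 of 8 genes, with a summed level of 4.30 to 4.74 in Sham and 3.88 to 4.39 in TBI, where 1 is the array's 75th percentile among its detected probes. The summed level was lowest in TBI+Zoloft (3.12 to 3.27). All 9 injury markers, among them Gfap, Vim and Timp1, passed as higher in TBI than in Sham (limma).

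Each of the imprinted neighbours also hosts a microRNA. These are shown because they lie inside 2 of the genes measured on the arrays. The seed (bases 2 to 8) is in capitals, 5′ to 3′, from RefSeq in rat build GRCr8, where all 4 lie on the minus strand of chromosome 1.
rno-miR-675-5p, inside H19, chr1:207161800-207161821: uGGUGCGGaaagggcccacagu
rno-miR-675-3p, inside H19, chr1:207161766-207161786: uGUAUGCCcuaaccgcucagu
rno-miR-483-5p, inside Igf2, chr1:207247903-207247924: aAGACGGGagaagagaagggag
rno-miR-483-3p, inside Igf2, chr1:207247865-207247886: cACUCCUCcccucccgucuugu
Each of these seeds was found in only 1 of the 724 mature rat miRNAs of the table, so that the 4 form no shared seed group. The results for them follow those of their hosts.

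H19 was far higher in every injured rat than in either Sham rat. In Sham its log2 level, relative to the 75th percentile of probes above background, was -5.46 and -3.34. In TBI it was -0.30, 1.04 and 0.38. It was 0.84, 0.32 and 0.49 in TBI+Imipramine, -0.25, -0.21 and 0.04 in TBI+Prozac, and -0.02, 0.38 and 0.92 in TBI+Zoloft. The injured rats lay closer to each other than the Sham rats did, and the groups did not overlap with Sham. In unscaled brightness the Sham spots read 32.0 and 128, against 1430 or more on every injured array, and all were above background.

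The difference between TBI and Sham was 4.77 ± 0.52 (SE; log2), a 27.3-fold higher level with a 95% interval of 12.6 to 59.4 (limma, adjusted p = 0.000203). TBI+Imipramine was 30.9-fold above Sham (interval 14.2 to 67.1; limma, adjusted p = 0.000136). TBI+Prozac was 19.2-fold above Sham (8.83 to 41.8; adjusted p = 0.000717) and TBI+Zoloft 28.4-fold (13.1 to 61.8; adjusted p = 0.00035). Of the 17322 probes tested, H19 ranked 12 from the highest by its difference between TBI and Sham, and between 14 and 23 in the drug groups. With the Sham rats so far apart, the size of the difference rested on which was used: without Sham replicate 1 the TBI difference was 3.72 and without Sham replicate 2 it was 5.83 (limma, adjusted p = 0.00178 and 8.67e-05, with the lone Sham rat assumed to vary like the other groups). With normexp background correction it was 3.65.

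Among the measured binding proteins, Igfbp2 and Igfbp3 rose after injury, and Igfbp4 and Igfbp6 did not pass the test in any comparison. Igfbp2, the main IGF binding protein of brain and cerebrospinal fluid, read -0.68 and -0.03 in Sham on its brighter probe. In TBI it read 1.42, 2.02 and 1.69. The drug-treated rats read 2.51, 2.77 and 1.64 with imipramine, 2.13, 1.40 and 1.77 with Prozac, and 2.48, 2.43 and 1.85 with Zoloft. Again no injured rat overlapped with Sham.

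Igfbp2 was 4.18-fold higher in TBI than in Sham (log2 difference 2.06 ± 0.35 SE; interval 2.48- to 7.04-fold; limma, adjusted p = 0.00228). It was 6.31-fold higher in TBI+Imipramine (adjusted p = 0.0004), 4.35-fold in TBI+Prozac (adjusted p = 0.00302) and 6.07-fold in TBI+Zoloft (adjusted p = 0.00151). The other probe of the gene, made to the same accession, gave 5.73-fold for TBI against Sham and 5.87- to 7.72-fold for the drug groups. The 2 probes differed by between -0.24 and 0.37 from array to array.

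Igfbp3, the main carrier of IGFs in blood and a product of vessel and stromal cells, had smaller differences in the same direction. It read -1.34 and -1.55 in Sham and -0.86, -0.68 and -0.22 in TBI. With imipramine it read -0.34, -0.35 and -0.63, with Prozac -0.61, -1.16 and -0.82, and with Zoloft -0.30, -0.07 and -0.01. All 12 injured rats lay above both Sham rats, and the TBI+Prozac mean (-0.86) lay nearest to that of Sham, although TBI replicate 1 lay nearer to Sham than TBI+Prozac replicates 1 and 3 did. Igfbp3 was 1.81-fold higher in TBI (0.86 ± 0.21 SE; adjusted p = 0.0162), 2.00-fold in TBI+Imipramine (adjusted p = 0.00545) and 2.49-fold in TBI+Zoloft (adjusted p = 0.00422). The difference of 0.58 ± 0.21 between TBI+Prozac and Sham did not pass (1.49-fold, interval 1.09 to 2.04; limma, adjusted p = 0.085), and whether it was smaller than that of TBI was not shown, since TBI+Prozac against TBI gave -0.28 with an interval of -0.69 to 0.13.

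The Igfbp3 calls were the least firm of those made. The TBI call was lost without Sham replicate 1 (adjusted p = 0.0564), without Sham replicate 2 (0.127) and when only Sham and TBI entered the fit (0.0766). The imipramine call was lost without Sham replicate 2 (0.0556), and the Prozac comparison passed without TBI+Prozac replicate 2 (0.0481).

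**Figure D1:**
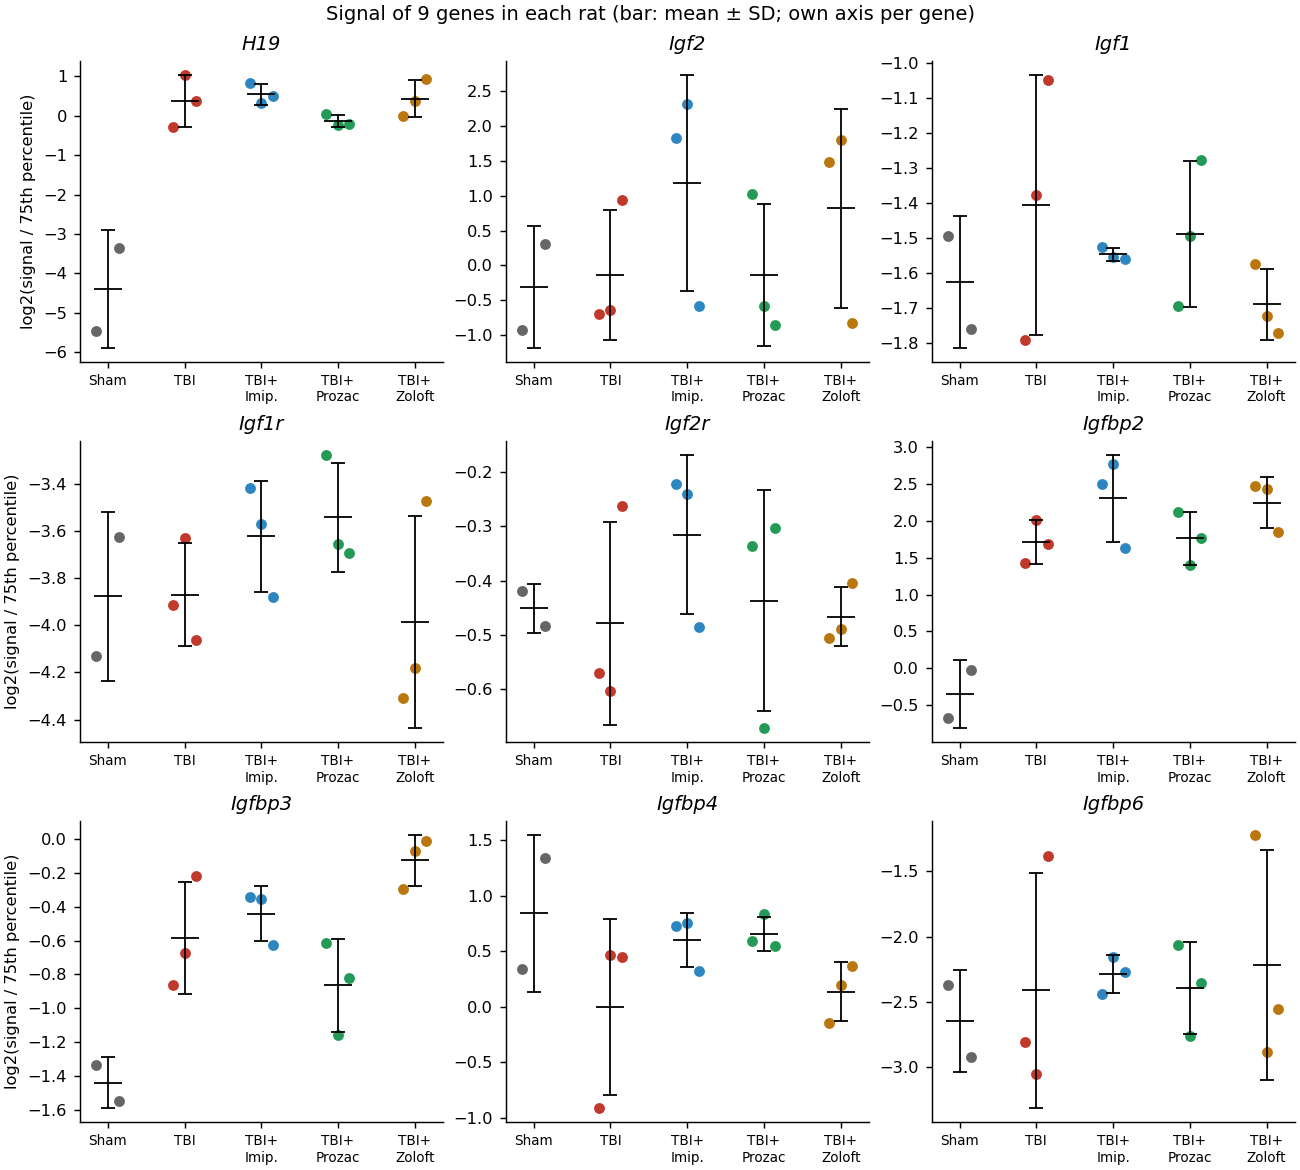
Log2 signal relative to the 75th percentile of probes above background (vertical axes, a separate range for each gene) in each rat for the 9 genes above background, with the mean and SD of each group; Sham has 2 rats and the other groups 3. H19, Igfbp2 and Igfbp3 sit higher in all 12 injured rats than in both Sham rats, and Igf2 splits within groups.

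Thus 3 of the 9 genes, H19, Igfbp2 and Igfbp3, had every injured rat above both Sham rats, which held for 12.1% of the 17251 probes with a value on every array. By the test, 3 of 9 genes passed in TBI, all higher, beside 16.6% of all probes in either direction and 8.3% upward. The count was 3 in TBI+Imipramine beside 23.4% and 19.8%, 2 in TBI+Prozac beside 14.9% and 11.7%, and 3 in TBI+Zoloft beside 5.95% and 4.16%. No member passed as lower in any of these. With quantile normalization the calls over all probes split into 2542 higher and 2656 lower in TBI+Imipramine, 1691 and 1576 in TBI+Prozac, and 1179 and 999 in TBI+Zoloft, while the members called were as many. By main probe, 3 of 9 genes had groups without overlap in each comparison with Sham. The shares of all probes were 42.3%, 59.6%, 52.4% and 38.3% in the same order, so that separation from only 2 Sham rats was common. H19 and Igfbp2 passed in all 4 comparisons with Sham, as did 3.34% of probes in the upward direction. These 4 comparisons share the same 2 Sham arrays. The median of all probes was itself 0.18 higher in TBI+Imipramine and 0.14 higher in TBI+Prozac than in Sham, and the differences of H19 and Igfbp2, relative to those medians, were 4.76 and 2.47 with imipramine and 4.12 and 1.98 with Prozac.

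**Figure D2:**
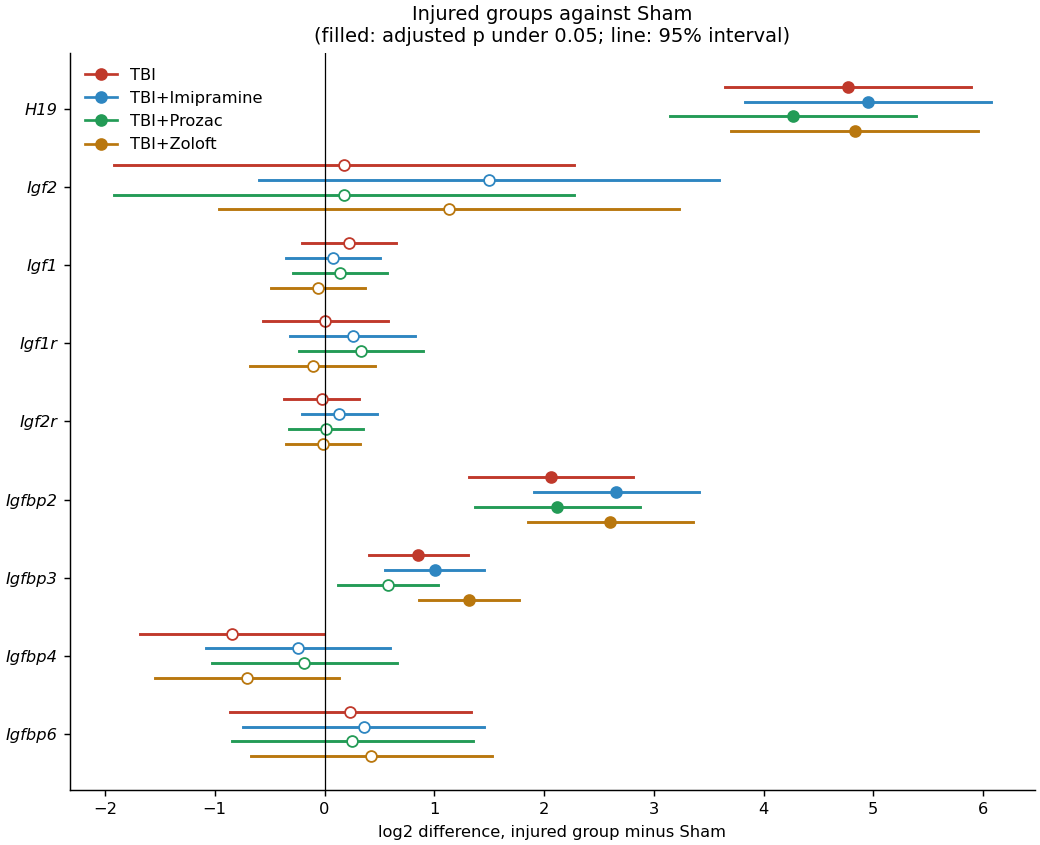
Log2 difference of each injured group from Sham (horizontal axis) for 9 genes, with the 95% interval from limma as a line and a filled point where the adjusted p was under 0.05. H19 lies between 4.26 and 4.95, Igfbp2 between 2.06 and 2.66 and Igfbp3 between 0.58 and 1.32, while every interval of Igf1, Igf1r, Igf2r, Igf2 and Igfbp6 spans 0.

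Igfbp2 and Igfbp3 are the members called against Sham for which a start-site sequence was given; of the 10 genes, all but H19 had an entry. The 250 bases before the start site are shown, 5′ to 3′ on the gene's strand, from RefSeq in build GRCr8, with motif matches in capitals.
Igfbp2, chr9:81864561-81864810, plus strand: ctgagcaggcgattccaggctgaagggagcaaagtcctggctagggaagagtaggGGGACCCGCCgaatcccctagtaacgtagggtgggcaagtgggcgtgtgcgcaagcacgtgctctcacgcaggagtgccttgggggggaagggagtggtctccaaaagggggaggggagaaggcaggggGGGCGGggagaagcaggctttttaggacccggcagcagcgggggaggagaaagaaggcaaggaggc
Igfbp3, chr14:86277945-86278194, minus strand: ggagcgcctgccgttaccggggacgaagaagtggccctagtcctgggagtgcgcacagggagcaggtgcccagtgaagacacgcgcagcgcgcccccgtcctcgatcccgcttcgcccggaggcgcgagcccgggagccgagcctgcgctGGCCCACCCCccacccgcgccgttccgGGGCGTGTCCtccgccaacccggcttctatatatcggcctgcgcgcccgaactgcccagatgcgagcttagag
The motifs searched on both strands were AP-1 (TGANTCA), STAT (TTCNNNGAA), Sp1 (GGGCGG), CRE (TGACGTCA) and a loose NF-kB pattern (GGG and CC with any 5 bases between). The Igfbp2 window held 1 Sp1 match, beginning 66 bases before the start, and 1 NF-kB match, beginning 195 bases before it. The Igfbp3 window held 2 NF-kB matches, beginning 100 and 73 bases before the start. Among all 33469 windows of this length, 30.5% held the Sp1 letters and 42.3% the NF-kB letters, so that these matches are common. AP-1, STAT and CRE letters, present in 6.34%, 7.67% and 1.59% of all windows, were in neither. G and C made up 64.0% of the Igfbp2 window and 71.6% of the Igfbp3 window, against a median of 51.2%.

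Igf2, the H19 neighbour, did not follow it. Its log2 level was -0.93 and 0.30 in Sham, -0.70, -0.64 and 0.94 in TBI, and 1.83, 2.31 and -0.58 in TBI+Imipramine. With Prozac it was 1.02, -0.58 and -0.86, and with Zoloft 1.48, 1.80 and -0.82. The highest rats were in TBI+Imipramine and TBI+Zoloft, each injured group also held at least 1 rat below -0.5, and all groups overlapped with Sham. TBI differed from Sham by 0.18 ± 0.96 (SE), an interval of -1.92 to 2.27 on the log2 scale, and none of the 4 comparisons with Sham passed (limma, adjusted p from 0.284 to 0.926). At 0.27- to 4.83-fold, the TBI interval leaves differences of several fold in either direction possible.

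The rats with high Igf2 were those with high choroid plexus markers. Ttr, which encodes the thyroid hormone carrier transthyretin and in brain marks choroid plexus epithelium, read 4.83 in TBI replicate 3, 6.63 and 6.69 in TBI+Imipramine replicates 1 and 2, 6.44 in TBI+Prozac replicate 1, and 6.11 and 6.65 in TBI+Zoloft replicates 1 and 2. It read 4.86 in Sham replicate 2 and between -2.63 and 0.90 in the remaining 7 rats. Of 12 choroid plexus markers, between 8 and 12 were above background in the 6 injured rats just named, 6 in Sham replicate 2, and 3 or 4 in the others. The 4 of these 12 that passed the filter (Ttr, Folr1, Kcne2 and Aqp1) had a summed level of 0.67 and 29.4 in Sham, 0.72 to 28.8 in TBI, 1.89 to 106 in TBI+Imipramine, 0.26 to 88.3 in TBI+Prozac and 1.90 to 102 in TBI+Zoloft. None of the 4 passed in a comparison between these groups and Sham or TBI.

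With the mean log2 level of these 4 markers as a covariate, an alternative chosen after the data had been seen, the standard error of the Igf2 difference between TBI and Sham went from 0.96 to 0.29 and the difference was 0.13 (interval -0.49 to 0.76). The Igf2 differences of the drug groups from Sham were then 0.15 with imipramine, 0.14 with Prozac and 0.01 with Zoloft, where the fold against Sham without the covariate had been 2.83, 1.13 and 2.19. Among drug-treated rats, Igfbp2 read 2.13 to 2.77 in the 5 with high Ttr and 1.40 to 1.85 in the other 4. In the TBI group it did not order this way: replicate 3, with high Ttr, read 1.69, below replicate 2 at 2.02. Its difference from Sham stayed past the threshold with the covariate, at 2.05 ± 0.22 in TBI and 2.11 to 2.27 in the drug groups (adjusted p from 0.000263 to 0.000537). H19 (4.26 to 4.79) and the 3 Igfbp3 calls (adjusted p from 0.0108 to 0.0195) also stayed past it. Meningeal and fibroblast markers, 9 of 10 measured, had a summed level of at most 1.75 in Sham and of 0.94 to 5.77 in injured rats, and their part in these levels was not tested.

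**Figure D3:**
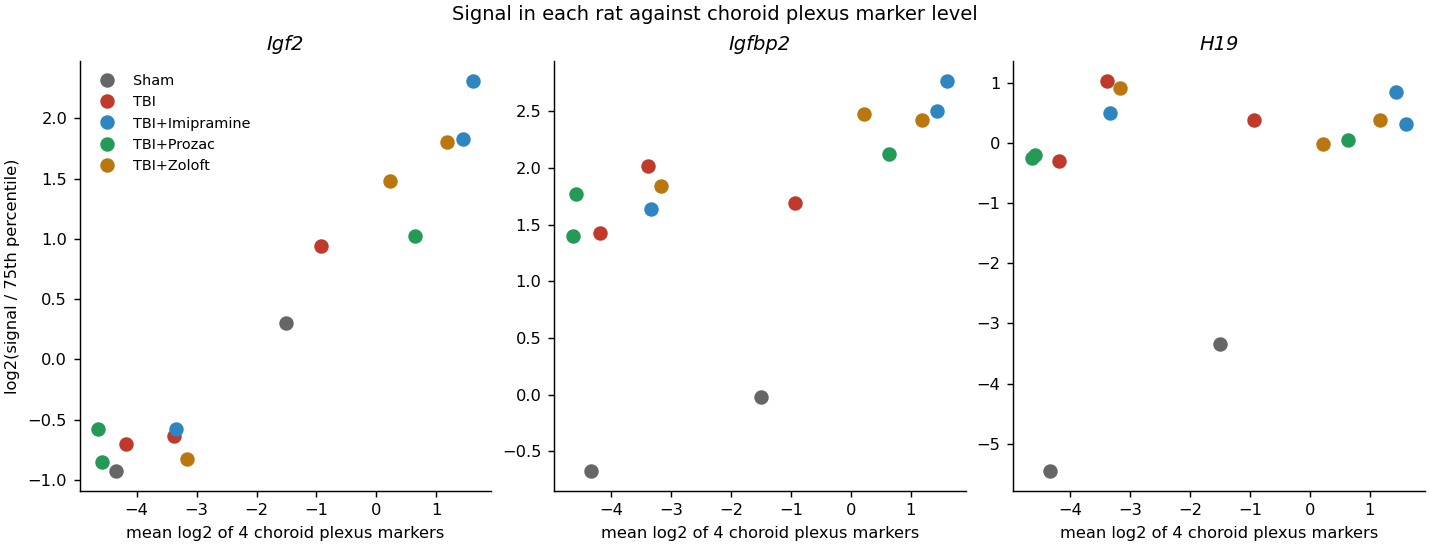
Log2 signal of Igf2, Igfbp2 and H19 (vertical axes, relative to the 75th percentile) against the mean log2 level of 4 choroid plexus markers (horizontal axis), 1 point per rat, coloured by group. In each group the rat with the highest markers has the highest Igf2, Igfbp2 is higher in the 5 drug-treated rats with high markers than in the other 4 but not ordered so within TBI, both Sham rats lie below all injured rats in Igfbp2, and H19 is lower in both Sham rats, whose marker means were -4.34 and -1.50, than in every injured rat. No Sham rat had a marker mean as high as the 5 highest drug-treated rats.

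The microRNAs hosted by H19 and Igf2 were near the detection limit of the miRNA arrays. No probe of miR-675-5p or miR-675-3p was above background on any of the 14 miRNA arrays, although the scanner software called miR-675-5p detected on 1 of them, TBI replicate 2. miR-483-3p was above background nowhere. miR-483-5p was called detected on 7 arrays: TBI replicate 3, TBI+Imipramine replicates 1 and 2, TBI+Prozac replicates 1 and 2, and TBI+Zoloft replicates 1 and 2. All but TBI+Prozac replicate 2 of these 7 are the injured rats with high Igf2 and high Ttr named above. Single probes of it were well above background on only 2 arrays, TBI+Prozac replicate 1 and TBI+Zoloft replicate 2. The Sham miRNA arrays had 0 and 1 of 1806 probes above background against 187 to 406 on the injured arrays, so no comparison with Sham was made for these miRNAs, and none was tested. The authors' series table held values over its floor of 0.1 for miR-483-5p on 14 arrays, for miR-675-5p on 4 and for miR-483-3p on 3. On neither Sham array was a probe of these miRNAs above background.

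Igf1, the other ligand, which in brain is made by neurons and by activated microglia, did not pass in any comparison. Its brighter probe read -1.49 and -1.76 in Sham and -1.79, -1.38 and -1.05 in TBI, and all 14 rats lay within 0.74. TBI differed from Sham by 0.22 ± 0.20 (SE; interval -0.21 to 0.65; limma, adjusted p = 0.487). The dimmer probe, made to another Igf1 accession, read -2.68 and -3.00 in Sham and -2.64, -2.28 and -1.88 in TBI, with no overlap between the groups. Its difference was 0.57 ± 0.19, which also did not pass (limma, adjusted p = 0.0637), and its level in TBI+Zoloft was 0.56 below TBI (interval -0.94 to -0.18; adjusted p = 0.133). The dimmer probe had no overlap with Sham in TBI+Imipramine either (0.32 higher; limma, adjusted p = 0.257). The same held in TBI+Prozac (0.49 higher; limma, adjusted p = 0.113), while TBI+Zoloft overlapped with Sham (0.01 higher). The brighter probe read 0.75 to 1.24 above the dimmer on the same array.

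The receptors showed no called difference. Igf2r lay between -0.67 and -0.22 in all 14 rats, and TBI differed from Sham by -0.03 (interval -0.37 to 0.31), the narrowest interval of the members in that comparison. Igf1r lay between -4.31 and -3.28, with a TBI difference of 0.01 (interval -0.56 to 0.57). Of the remaining binding proteins, Igfbp4, an inhibitory binding protein cleaved by pappalysins, read 0.34 and 1.34 in Sham and -0.91, 0.46 and 0.44 in TBI. Its difference of -0.84 ± 0.39 had an unadjusted p of 0.0496 and an adjusted p of 0.162 (limma). Igfbp6, which binds IGF2 in preference to IGF1, differed by 0.23 ± 0.51 and read highest in TBI replicate 3 (-1.38) and TBI+Zoloft replicate 1 (-1.22), both among the rats with high Ttr. The remaining rats with high Ttr read between -2.92 (Sham replicate 2) and -2.07 (TBI+Prozac replicate 1). Over the 14 arrays the correlation (r) of Igfbp6 with the choroid plexus marker level was 0.35.

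No member passed in any of the 3 comparisons of a drug group with TBI, where 2.85% of all probes passed for imipramine, 0.00577% for Prozac and 1.38% for Zoloft (limma, adjusted p under 0.05). These shares over all probes rested on single arrays: leaving out each array in turn gave 13 to 591 calls for imipramine (494 with all arrays; 13 without TBI+Imipramine replicate 2), 0 to 121 for Prozac (121 without TBI+Prozac replicate 1) and 1 to 381 for Zoloft (1 without TBI+Zoloft replicate 3). H19 differed from TBI by 0.18 (interval -0.83 to 1.18) with imipramine, by -0.51 (-1.51 to 0.50) with Prozac and by 0.06 (-0.95 to 1.06) with Zoloft. Igfbp2 differed by 0.59 (-0.08 to 1.27), 0.06 (-0.62 to 0.73) and 0.54 (-0.13 to 1.21) in that order. The lower ends of these intervals lay above the Sham levels, which were 4.77 and 2.06 below TBI. Igf2 differed from TBI by 1.32 (-0.55 to 3.19) with imipramine, -0.00 (-1.88 to 1.87) with Prozac and 0.95 (-0.92 to 2.83) with Zoloft, and with the choroid plexus covariate by 0.01, 0.01 and -0.12. By main probe, the 1 gene with an unadjusted p under 0.05 in these 3 comparisons was Igfbp3 with Zoloft, at 0.46 (0.05 to 0.87; limma, adjusted p = 0.257). For that unadjusted threshold no share of all probes is given here. The dimmer Igf1 probe with Zoloft, given above, also had an unadjusted p under it (limma, 0.00696), with no overlap between the groups. By main probe, groups without overlap were found for 0, 1 and 0 of 9 genes, beside 25.8%, 15.1% and 15.3% of all probes. The 1 was Igfbp4, higher with Prozac by 0.66 (interval -0.09 to 1.41; adjusted p = 0.553). With slide as a fixed block the H19 differences were 0.45, -0.33 and 0.33, those of Igfbp2 were 1.13, 0.41 and 1.08, and those of Igf2 were 3.06, 1.16 and 2.70, with an imipramine interval of -0.26 to 6.39 for Igf2. The block rests on the 1 TBI+Prozac rat on slide 1, which had high Ttr. For Igfbp3 the blocked differences were 0.53, -0.03 and 0.84, and none of the members passed. On slide 1 itself, H19 was 0.04 in TBI+Prozac replicate 1, inside the TBI range, and Igfbp2 was 2.13, above all 3 TBI rats.

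**Figure D4:**
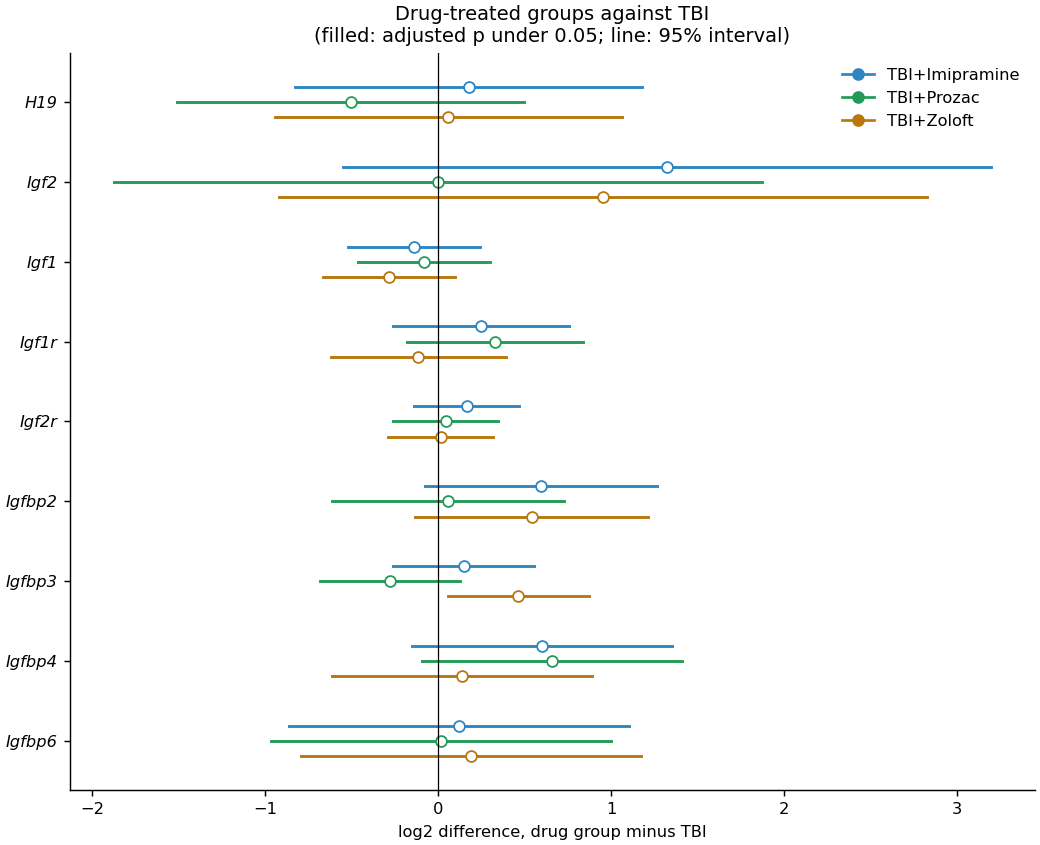
Log2 difference of each drug group from TBI (horizontal axis) for 9 genes, with the 95% interval from limma as a line; open points did not reach an adjusted p under 0.05. All 27 points are open, and the Igf2 intervals are the widest because its level varied from rat to rat within groups.

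Drug groups were set against each other at their common dose and time, in 3 pairs and 9 genes, with p-values adjusted over all 17322 probes. None of the 27 differences passed, where 0.00577% of all probes passed for imipramine against Prozac, 5.29% for imipramine against Zoloft and 3.69% for Prozac against Zoloft, and the moderated F test for any difference among drugs also called no member beside 3.18% of probes. The nearest was Igfbp3, for which every TBI+Prozac rat lay below every TBI+Zoloft rat. This difference between the serotonin reuptake inhibitors was -0.74 ± 0.19 (SE; 0.60-fold, interval -1.15 to -0.33) at an adjusted p of 0.0500306, just over the threshold of 0.05. It passed under 5 of the 12 other settings of scaling, filter, block or covariate, with an adjusted p between 0.0305 and 0.137, and without either of TBI replicates 1 and 3 (0.0375 and 0.0369). By main probe, groups without overlap were seen for 1, 2 and 2 of 9 genes in these pairs, beside 17.3%, 29.8% and 25.6% of all probes. H19 differed between the drugs by at most 0.68 (imipramine above Prozac, interval -0.32 to 1.69), and Igf2 intervals reached past 3 on the log2 scale, so that like action of the drugs was not shown either.

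Of the 6 measured carriers and proteases (Igfbp1, Stc1, Htra1, Adam9, Ctsd and Ghr), none passed between TBI and Sham, and their median difference was -0.16 beside 0.00 for all probes. Adam9, a metalloprotease that can cleave IGF binding proteins, was 0.73 ± 0.16 higher in TBI+Imipramine than in TBI (limma, adjusted p = 0.0317) and 0.68 higher than in Sham (adjusted p = 0.0158), as was the lysosomal protease gene Ctsd against Sham (0.66; adjusted p = 0.0248). The median of all probes was itself 0.20 higher in TBI+Imipramine than in TBI and 0.18 higher than in Sham. Calls against TBI over all probes went from 494 to 50 with quantile normalization, and whether Adam9 stayed among them is not given. Of the 22 measured genes of IGF receptor signalling, 2 rose and 2 fell in TBI, with a median of -0.02. Over all probes 16.6% passed in that comparison, a share close to 4 of 22. Eif4ebp1, a translation repressor controlled by mTOR, rose by 1.21 ± 0.21 (adjusted p = 0.00303) and the adaptor gene Shc1 by 0.99 ± 0.22 (adjusted p = 0.0105). Grb14, an adaptor that restrains insulin receptor signalling, fell by 0.71 (adjusted p = 0.0261), and Sos1, a Ras exchange factor, fell by 0.60 (adjusted p = 0.0325). Eif4ebp1 and Shc1 also passed in all 3 drug groups against Sham, at 1.04 to 1.44 and 0.82 to 1.14.

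Among 7 measured regulators of H19 and Igf2, 1 rose and 2 fell in TBI, beside 16.6% of all probes called in either direction. Elavl1, which encodes the RNA-binding protein HuR, rose by 0.64 in TBI (limma, adjusted p = 0.035) and passed in each drug group against Sham, at 0.66 to 0.93. Lin28a, an RNA-binding inhibitor of let-7, fell by 0.96 (adjusted p = 0.0228) and Zfp57, a zinc finger protein that keeps imprints, fell by 1.25 (adjusted p = 0.035), both from dim levels, and neither passed in any drug group against Sham (limma, adjusted p from 0.0631 to 0.137 for Lin28a and from 0.156 to 0.663 for Zfp57). Ctcf, the insulator protein of the imprinted H19 and Igf2 region, differed by -0.05 ± 0.20. Of 10 measured imprinted genes elsewhere in the genome or in the neighbouring domain, 1 passed in TBI, beside the same 16.6% of all probes, and their median was 0.04. The 1 was Phlda2, which fell by 1.12 ± 0.30 (limma, adjusted p = 0.0241). Phlda2 was also lower than in Sham in TBI+Imipramine (-1.16) and TBI+Zoloft (-1.45). In TBI+Prozac against Sham none of the 10 imprinted genes passed, Phlda2 among them. The cell-cycle inhibitor gene Cdkn1c was 1.48 higher in TBI+Imipramine than in Sham (limma, adjusted p = 0.0338).

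**Figure D5:**
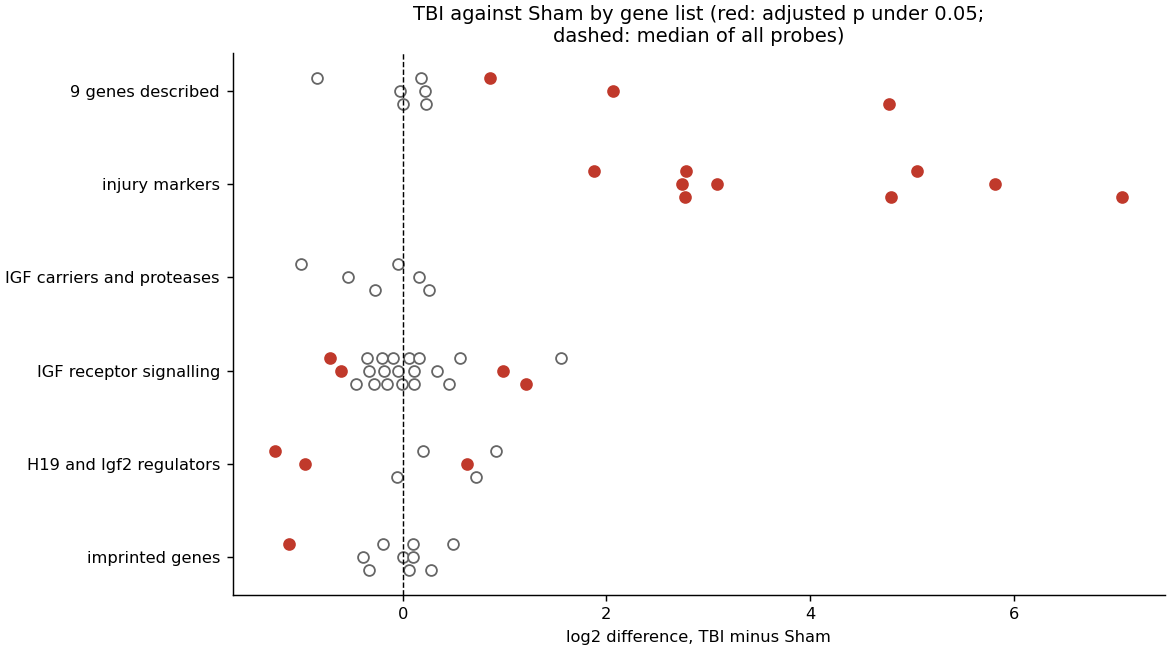
Log2 difference between TBI and Sham (horizontal axis), 1 point per measured gene, for the 9 genes described, 9 injury markers and 4 lists around the IGF system; red points had an adjusted p under 0.05 and the dashed line is the median of all probes. H19 at 4.77 lies within the range of the injury markers but above their median of 3.09, near Timp1 at 5.04 and Hspb1 at 4.80, while most genes of the 4 lists lie within 1 of the dashed line.

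The genes most like H19 over the 14 arrays, among 10196 named genes, were Hspb1 (r = 0.99), which encodes a small heat shock protein, Aspg (0.98) and Cd14 (0.98), a co-receptor for lipopolysaccharide on myeloid cells. These values rest on the gap between Sham and injured rats: over the 12 injured rats alone they were 0.83, 0.68 and 0.77. Markers of macrophages and monocytes moved with the same contrast, with 4 of 6 measured markers higher in TBI (median 1.58), beside 8.3% of all probes. Their summed level was 1.39 to 1.49 in Sham against 3.79 to 4.75 in TBI. Mrc1 and Ccr2 were not measured. In drug-treated rats that level was 1.38 to 9.89, and its part in the H19, Igfbp2 and Igfbp3 differences was not tested. Of the other cell type lists, microglia, astrocytes and endothelium each had 1 of 7 measured markers higher in TBI, and the rest had none. The genes most like Igf2 were Slc2a12 (0.98), Aqp1 (0.97) and Cdh3 (0.97), with 0.98, 0.97 and 0.98 over injured rats, where the points fall into a high and a low clump. Aqp1 is the water channel of choroid plexus epithelium and is among the 4 markers above. For Igf1 they were Esf1 (0.88), Ccndbp1 (0.86) and Nme1 (0.86), over a far narrower range of levels.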

How the data were processed

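Gene expression and miRNA were measured on 28 one-colour Agilent arrays from 14 rat hippocampi, grouped by sample title. The deposited scanner files hold spot intensity on a linear scale, which the authors obtained with Agilent Feature Extraction 11.5.1.1 after background subtraction and spatial detrending, with flags (0 or 1) for outlier, saturated and well-above-background spots. The authors' series tables hold the same arrays' intensity divided by 1 constant per array.

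Processed signals of a probe's spots without an outlier flag were averaged, divided by the array's 75th percentile of probes above background (over 0.5 of spots flagged well above background) and taken as log2. Probes above background on every array of a group were kept, 17322 of 30367. Accessions were matched to the RefSeq table of GRCr8, which named 18643 probes. A gene's main probe was the kept probe with the highest mean. Groups were compared with lmFit and eBayes in limma 3.58.1 (R 4.3.3) in 1 fit of 5 groups, two-sided, with Benjamini-Hochberg adjustment over kept probes at 0.05. The fit was also run on simulated data with independent noise for each probe. That simulation held no slide difference and no variation shared between probes, so it cannot speak to the slide or choroid plexus limits given above. No spot of these genes was saturated, and no member value was imputed or dropped. Precision is limited by the number of arrays.

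The members and gene lists were chosen with earlier results of these data known. All members are named with every probe; other genes are named if past the threshold between TBI and Sham, at most 4 per direction and list, or among the 3 most correlated with H19, Igf2 or Igf1, and the few others given (among them Adam9, Ctsd, Cdkn1c and Ctcf) were picked after their values were seen. Replicates are separate rats per the labels. Replicate numbers did not pair the arrays: same-numbered deviations correlated between -0.23 and 0.23 over 26 pairs. Alternatives were quantile normalization, the percentile over all probes, normexp (offset 50, on median signals, since mean signals were not used here), the series tables, other filters, slide and replicate blocks, the methods' t-test, leaving out each array, and the choroid plexus covariate. The hosted miRNAs are given as detection only. The lone array left in Sham when the other is left out was assumed to vary like the other groups.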

Additional observations from a re-analysis of the deposited data

How the results depend on the processing

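The number of members called stayed at 3, 3, 2 and 3 of 9 against Sham for injury alone, TBI+Imipramine, TBI+Prozac and TBI+Zoloft, and at 0 for each drug against TBI, under each alternative but these. It was 2 for TBI when only the groups compared entered the fit. The methods' t-test gave 3, 3, 2 and 3 at its own unadjusted threshold with its fold limit, beside 3031, 5694, 4134 and 2278 of the 17322 kept probes. After Benjamini-Hochberg adjustment that t-test called 0 members in all 4 comparisons with Sham, beside 0, 1111, 1 and 0 of all probes. Leaving out each array in turn gave 2 to 3 for TBI, 2 to 3 for TBI+Imipramine, 2 to 3 for TBI+Prozac and 3 for TBI+Zoloft. H19 and Igfbp2 kept their direction, and no member's called difference reversed. Slide as a fixed block gave no value against Sham. The replicate numbers did not pair the arrays; with the replicate block the counts were 3, 3, 2 and 3 against Sham and 0 against TBI, and the TBI difference was 4.72 for H19, 2.20 for Igfbp2 and 0.81 for Igfbp3. Counts over all probes moved more. TBI against Sham had 2879 calls, but 4467 with quantile normalization, 4446 with the percentile over all probes, 4392 from the series tables, 1916 without the filter and 1540 with only the groups compared. TBI+Zoloft against Sham had 1031, but 2178, 2118, 2074, 520 and 200 in that order, 683 with normexp and 647 with the replicate block, and TBI+Prozac against Sham went from 2579 to 1504 without the filter. TBI+Imipramine against TBI went from 494 to 50, 58, 56 and 283 under the first 4 of these, to 2 with slide as a fixed and 998 as a random block, and TBI+Zoloft against TBI (1.38% of probes) to 803, 824, 805, 22 and 19, and to 2 and 703 with those blocks. Leaving out each array gave 1268 (without Sham replicate 1) to 3281 calls for TBI against Sham, 2022 (without Sham replicate 2) to 4901 for TBI+Imipramine, 711 to 3185 for TBI+Prozac and 232 to 1350 for TBI+Zoloft, both lowest without Sham replicate 1, and 11 to 804 among the drugs. Any difference among the drugs went from 551 to between 11 and 197 under the settings named before the left-out arrays, except the random block (557). It was 736 with only probes above background on all arrays and 534 with outlier-flagged spots kept. The choroid plexus covariate, added after the data were seen, gave 2666 calls for TBI+Imipramine against Sham (4046 without it) and 913 among the drugs. The cause was not tested. Igfbp5 lay below background, and signal over background and the 2 Sham arrays limit the rest.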
